A study of Mus musculus with 32 samples.

Results

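The Notch pathway was followed through 10 genes, taken by their symbols from the 32285 genes counted in the series. They were the receptors Notch1, Notch2 and Notch3, the ligands Dll1, Dll3 and Jag1, the target genes Hes1 and Hes5, their relative Hes6, and Mfng, which encodes a sugar transferase acting on the receptors. All 10 symbols were found once each in the files, and all 10 passed the filter on low counts in each of the 3 cell classes used here.

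In Notch signalling, a ligand on one cell binds a receptor on its neighbour, the receptor is cleaved, and its inner part enters the nucleus, where it joins the DNA-binding protein RBPJ and turns on repressors such as Hes1 and Hes5. In the embryonic cortex, radial glia that receive this signal are kept as dividing progenitors, whereas cells on the way to neurons display Delta-type ligands such as Dll1. Dll3 acts within the cell that makes it, Jag1 is a ligand of another family, Hes6 opposes Hes1, and fringe enzymes such as Mfng change which ligands a receptor answers to.

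Single cells were captured from dorsal telencephalon, the tissue that gives rise to the neocortex, of C57BL/6J mouse embryos that were wild type (WT) or lacked 1 functional copy of Chd8 (labelled Chd8 het, or Chd8+/-), a gene for a chromatin remodelling protein. Embryos came from E12.5, from E14.5, from E16.0 and from E17.5, and each combination of stage and genotype had 4 libraries, named M1 and M2 for the males and F1 and F2 for the females. Each of the 32 libraries held the cells of 1 embryo, and embryos were matched by litter and sex into 16 pairs of 1 WT and 1 het each. Per the labels' protocols, the medial part of the tissue was cut away to keep the future hippocampus out. The labels do not say which part of Chd8 the het allele lacks, so that tags from the 3′ end need not report its loss. Chd8 was at 39.6 to 82.8 CPM (a gene's count scaled to a common library total) in the WT libraries and at 19.6 to 70.9 CPM in the het libraries, and it was lower in the het embryo in 15 of 16 pairs, the exception being the F1 pair of E17.5.

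Of 138226 retained cells, 54162 had at least 1 molecule (UMI) of Sox2, a gene of radial glia, 31946 had one of Eomes, a gene of intermediate progenitors, and 85102 had one of Neurod6, a gene of excitatory neurons. These are called Sox2-, Eomes- and Neurod6-detected cells, and the counts of each class were summed per library before any test. The classes overlapped, since 43.8% of Eomes-detected cells were also Sox2-detected and 75.4% were also Neurod6-detected. Other markers fitted the class names: 7 of 7 radial glia markers were highest in Sox2-detected cells, 6 of 6 intermediate progenitor markers in Eomes-detected cells, and 7 of 7 excitatory neuron markers in Neurod6-detected cells. All 7 interneuron and ventral markers and all 5 oligodendrocyte precursor markers were also highest in Sox2-detected cells, of which 1.5% carried 3 or more markers of another cell type at E12.5 and 21.3% at E17.5. In Neurod6-detected cells 7 of 7 endothelial, 5 of 5 red blood cell, 5 of 7 microglia and 5 of 7 mural markers were highest. Total counts ranged from 14710694 to 66499864 UMIs per library, and a member had between 2 and 24593 UMIs in a class of a library. Median UMIs per cell were 8762 to 10677 in the WT libraries of E12.5 and 4166 to 10727 in the het libraries, M2 being the only deep one of the latter. Any pair of libraries shared 7 to 66 cell barcodes, at most 1.27% of the smaller library.

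On build GRCm38, with the GENCODE M21 annotation, the receptors lie on chromosome 2 (Notch1, 26457903 to 26516663), chromosome 3 (Notch2, 98013527 to 98150361) and chromosome 17 (Notch3, 32120820 to 32166852). The ligands lie on chromosome 17 (Dll1, 15367354 to 15376872), chromosome 7 (Dll3, 28293553 to 28302238) and chromosome 2 (Jag1, 137081456 to 137116644). Hes1 is on chromosome 16 (30064384 to 30067796), Hes5 on chromosome 4 (154960923 to 154962371), Hes6 on chromosome 1 (91411483 to 91414038) and Mfng on chromosome 15 (78755882 to 78773475). All are protein-coding. Genes on the same strand overlap Notch1 (Mir6996) and Notch2 (Gm42819 and Gm42820). Genes on the opposite strand overlap Notch1 (0610009E02Rik and Gm13568), Notch3 (Gm17276), Dll1 (A930024N18Rik) and Hes5 (Gm20421), and whether counting used the strand is not given in the sources used here, so reads of these cannot be told apart.

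RefSeq promoters on GRCm38.p6 matched 8 of the 10 members, all but Hes1 and Mfng. The 250 bases before a start site are shown for Hes5, as the target that carried the RBPJ core motif, and for Dll1, Dll3 and Hes6, which stood together in the class comparisons below and carried E-boxes, the motif bound by proneural basic helix-loop-helix factors. In the Hes5 sequence (chr4:154960673-154960922, plus strand) the 2 matches to TGGGAA on either strand are in capitals, and in the others the matches to CANNTG are (Dll1 chr17:15376933-15377182, Dll3 chr7:28301786-28302035 and Hes6 chr1:91414039-91414288, all on the minus strand).
Hes5: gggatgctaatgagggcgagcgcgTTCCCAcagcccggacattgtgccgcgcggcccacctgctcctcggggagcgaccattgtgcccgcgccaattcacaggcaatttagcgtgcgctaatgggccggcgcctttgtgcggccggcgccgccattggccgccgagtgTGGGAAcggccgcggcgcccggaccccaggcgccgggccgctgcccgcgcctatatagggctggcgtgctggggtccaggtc
Dll1: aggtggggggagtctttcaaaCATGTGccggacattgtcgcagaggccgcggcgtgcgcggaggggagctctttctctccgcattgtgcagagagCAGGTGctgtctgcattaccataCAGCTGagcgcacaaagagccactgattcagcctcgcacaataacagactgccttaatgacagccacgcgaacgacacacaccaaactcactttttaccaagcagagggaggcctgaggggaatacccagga
Dll3: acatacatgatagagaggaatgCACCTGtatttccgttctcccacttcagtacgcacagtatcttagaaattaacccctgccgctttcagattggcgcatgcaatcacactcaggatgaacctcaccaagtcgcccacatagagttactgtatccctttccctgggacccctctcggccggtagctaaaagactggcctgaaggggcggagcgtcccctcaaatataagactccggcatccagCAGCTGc
Hes6: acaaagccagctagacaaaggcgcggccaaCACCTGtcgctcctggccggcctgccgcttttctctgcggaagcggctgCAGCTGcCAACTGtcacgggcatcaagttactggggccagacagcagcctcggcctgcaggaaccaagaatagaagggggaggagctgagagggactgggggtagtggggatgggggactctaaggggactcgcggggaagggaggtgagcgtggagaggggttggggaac
These windows held 3 E-boxes for Dll1, 3 for Hes6, 2 for Dll3 and 1 for Hes5, the last not in capitals. Dll1 and Hes6 each have a second promoter in the table, which is not printed and holds 1 E-box. Of the members not shown, Jag1, which was lower in Eomes-detected cells, held 1 E-box, and Notch1, Notch2 and Notch3 held none. Over 32851 promoters of the same length, TGGGAA was present on either strand in 21.6% and CANNTG in 66.2%, so an E-box alone is common. Each match is a description of the letters in this window.

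The first comparison asked where along the path from radial glia to neuron each member was expressed. Averaged over the stages, receptors, Jag1, Hes1 and Hes5 were lower in Eomes-detected than in Sox2-detected cells, whereas Dll1, Dll3, Hes6 and Mfng were higher. All 10 members passed the test (edgeR's quasi-likelihood test with Benjamini-Hochberg adjustment, adjusted p under 0.05), 4 of them higher and 6 lower, where 80.4% of all genes tested did. From Eomes-detected to Neurod6-detected cells all 10 were lower, where 82.9% of all genes were called in either direction. Not every library followed this last step, since Neurod6-detected cells had the higher level in 10 of 32 libraries for Jag1, with 6 of 8 at E12.5 (0.21 ± 0.10, edgeR adjusted p = 0.10), in 6 of 32 for Hes1, in 4 of 32 for Notch3 and in 3 of 32 for Notch2, and in 0 of 32 for the other 6 members. Differences are given on the log2 scale with their standard errors, from a fit with the library as a block.

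Hes1, a repressor that keeps progenitors cycling, differed by -2.13 ± 0.066 between Eomes-detected and Sox2-detected cells, the largest drop among the members. Hes5, the other repressor target, differed by -1.56 ± 0.052. Both were lower in Eomes-detected cells in 32 of 32 libraries. The receptors Notch2 (-1.63 ± 0.058), Notch3 (-1.57 ± 0.068) and Notch1 (-0.59 ± 0.037) were lower in 32 of 32 libraries as well. Jag1 differed by -0.74 ± 0.057 and was lower in 31 of 32 libraries. In cells detected for a single class gene the Jag1 difference was 0.057, of the other sign.

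Dll3, the ligand that acts inside its own cell, was higher in Eomes-detected cells by 1.42 ± 0.049, in 30 of 32 libraries. Mfng was higher by 1.40 ± 0.041 and Hes6 by 0.94 ± 0.029, each in 32 of 32 libraries. For Dll1 the averaged difference was 0.75 ± 0.046, in 24 of 32 libraries, and the 8 exceptions were the 8 libraries of E17.5. In Neurod6-detected cells Dll1 was above the Sox2-detected level in 8 of 8 libraries at E12.5 and in 0 of 8 at each later stage. From Eomes-detected to Neurod6-detected cells the drops ran from -0.31 ± 0.073 for Hes1 to -1.15 ± 0.039 for Mfng, with -1.13 ± 0.043 for Notch1 and -1.11 ± 0.047 for Dll1. Eomes-detected cells had the highest level of the 3 classes for Hes6 and Mfng in every library. Between Neurod6-detected and Sox2-detected cells, Dll3 (0.68 ± 0.046) and Mfng (0.25 ± 0.04) were higher and 7 members lower, where 91.4% of all genes were called. Hes6 did not pass (-0.014 ± 0.028, edgeR adjusted p = 0.64). With 2 or more UMIs for a class Hes6 was at 0.12 and with cells of a single class at 0.30, both called. Dll1, 1 of the 7 lower members, was at 0.060 with cells of a single class, of the other sign and not called (edgeR adjusted p = 0.36).

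The Neurod6-detected levels of Hes1, Hes5 and the receptors can be set beside microglia-like cells, named by their markers. Molecules of neural genes in such cells may come from free RNA. Counts of microglia-like cells were summed over the libraries of both genotypes. Hes1 was found outside neural cells as well, at 238 CPM in endothelial-like and 353 CPM in mural-like cells of E12.5. In the 51 microglia-like cells of E12.5, Hes1 was at 123 CPM (96.5 to 154, exact 95% Poisson interval, counting error only) and Hes5 at 58.9 CPM (41.3 to 81.5). The WT Neurod6-detected sums of E12.5 were at 147 to 252 CPM for Hes1 and 78.2 to 114 CPM for Hes5, where the lowest libraries lay within those intervals and the highest above them. Dll1 in microglia-like cells was at 1.64 CPM (0.0414 to 9.12) against 74.9 to 112 CPM in the Neurod6-detected sums. At E17.5, 88 microglia-like cells had Hes1 at 36.8 CPM (22.5 to 56.9) and Hes5 at 5.52 CPM (1.14 to 16.1), against 11.5 to 21 CPM and 15.2 to 33.8 CPM in the WT Neurod6-detected sums, and at E14.5 and E16.0 both genes were at 3.65 to 18.3 CPM in microglia-like cells. Of the receptors at E12.5, Notch1 was at 13.1 CPM, Notch2 at 24.5 CPM and Notch3 at 8.18 CPM in microglia-like cells, against 19.0 to 24.5, 13.0 to 16.9 and 3.95 to 7.18 CPM in the WT Neurod6-detected sums. Notch2 stayed at 21.3, 19.5 and 22.1 CPM in microglia-like cells of E14.5, E16.0 and E17.5. Whether these cells make Notch2 themselves was not tested. How much free RNA contributed to the Neurod6-detected values was not tested.

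**Figure D1:**
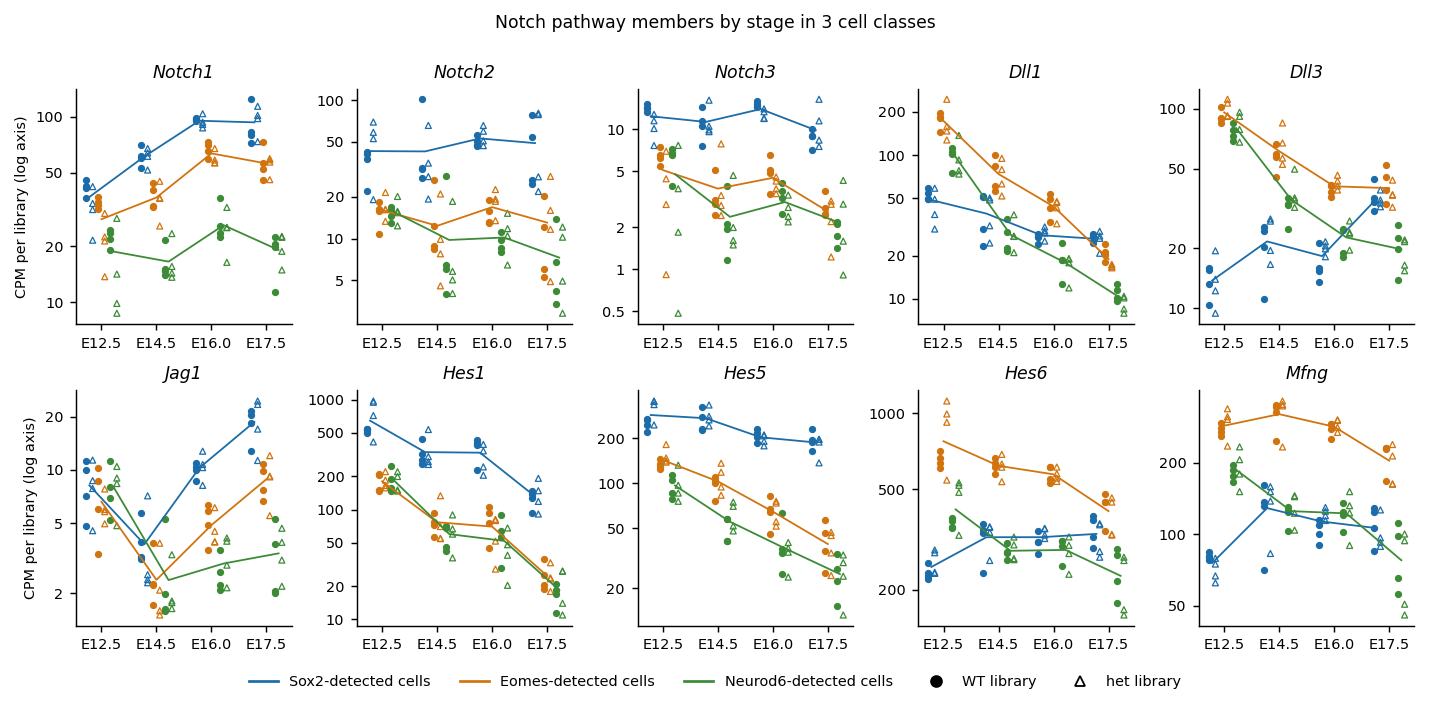
CPM of each member (log axis) in every library by stage, in Sox2-detected (blue), Eomes-detected (orange) and Neurod6-detected (green) cells; filled circles are WT libraries, open triangles het libraries, and lines join the means of the 8 libraries of a stage. Receptors, Hes1 and Hes5 lie highest in blue, Hes6 and Mfng highest in orange, and the orange Dll1 points start above the blue ones at E12.5 and end below them at E17.5.

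In sums over all cells of a class, the excess of the neurogenic members in Eomes-detected cells shrank with stage. The deficit of receptors and Hes targets grew. Fewer members passed with thinned cells or with cells of a single class, as given below. The Eomes-minus-Sox2 difference was lower at E17.5 than at E12.5 for 10 of 10 members by a test of the change itself, where 42.7% of all genes tested changed in either direction. Among the members the median change was -0.84, against 0.00093 over all genes. The Delta-type ligands Dll3 and Dll1 moved most of the 10. Dll3 went from 2.74 ± 0.075 to 0.22 ± 0.12 (change -2.52 ± 0.14, edgeR adjusted p = 3.6e-23). Dll1 went from 1.78 ± 0.055 to -0.42 ± 0.13 and so changed sign (change -2.20 ± 0.14, edgeR adjusted p = 1.4e-20). At E14.5 and E16.0 Dll1 was still higher in Eomes-detected cells, by 0.95 ± 0.069 and 0.68 ± 0.08, in 8 of 8 libraries at each stage. At E17.5, 21.3% of Sox2-detected but 1.75% of Eomes-detected cells carried 3 or more markers of another cell type. Oligodendrocyte precursor-like cells of that stage, named by their markers, had Dll1 at 103 CPM and Dll3 at 145 CPM. The Dll1 and Dll3 differences of E17.5, with their signs, are those of sums that include such cells. Values without them are not given here.

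By stage, from E12.5 on, the Eomes-minus-Sox2 test called 10, 10, 10 and 9 members, where 74.0%, 65.7%, 68.9% and 51.5% of all genes were called.

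The other 8 members changed less. Hes6 went from 1.62 to 0.33 and Mfng from 1.90 to 0.98, both still higher in Eomes-detected cells. Hes5 went from -0.98 to -2.24, a larger move than that of Hes1, from -1.78 to -2.37, although the difference between the 2 was not tested. The change was -0.59 ± 0.21 for Hes1, and changes of less than 1 log2 unit were also measured for Jag1 (-0.77 ± 0.14), Notch3 (-0.70 ± 0.23), Notch2 (-0.66 ± 0.19) and Notch1 (-0.31 ± 0.11). With every cell thinned to 2000 UMIs 6 of 10 members passed (all genes, 30.8%), and among cells detected for a single class gene 5 of 10 did (all genes, 15.4%), none of those that passed being higher. In the latter cells the Notch3 change was 0.038, of the other sign (edgeR adjusted p = 0.99). With all cells, the changes of Notch1 and of Hes1 each lost the call in 2 of 32 fits with 1 library left out. The share of Sox2-detected cells that were also Eomes-detected moved with stage as well, from 15.8% at E12.5 to 34.2% at E17.5. So did the share of Eomes-detected cells that were also Neurod6-detected, from 62.3% to 83.2%, and that of Sox2-detected cells that were also Neurod6-detected, from 15.9% to 45.0%. The part of these overlaps in the change was tested only by the fit on cells detected for a single class gene.

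**Figure D2:**
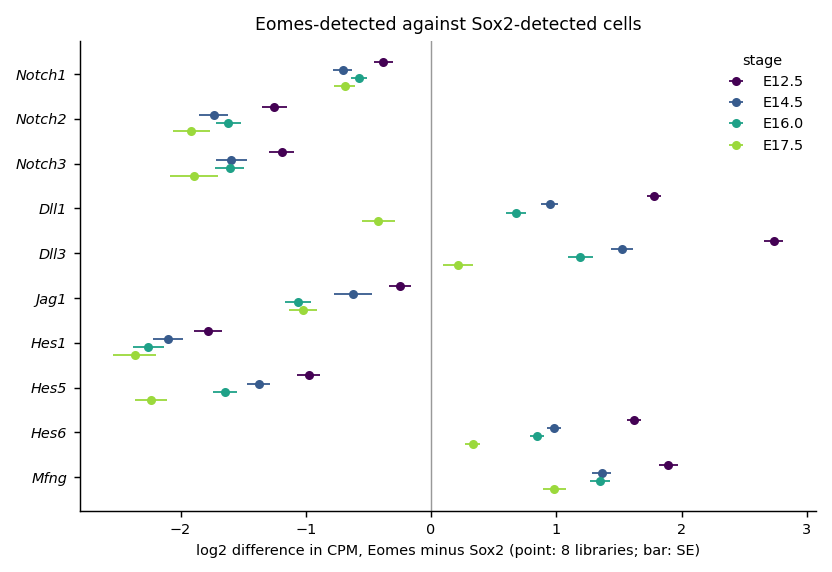
Log2 difference, from the edgeR fit, between Eomes-detected and Sox2-detected cells for each member at each stage (points, 8 libraries each; bars, SE). Dll1 moves from 1.78 at E12.5 to -0.42 at E17.5 and Dll3 from 2.74 to 0.22, while Hes1 and the receptors stay below 0 at all 4 stages.

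The second comparison followed the members over development in WT embryos. Median UMIs per cell were 8762 to 10677 in the WT libraries of E12.5 and 4119 to 5484 in those of E17.5. No start of a label code was shared between stages. In Sox2-detected cells, Notch1, Dll3, Jag1 and Hes6 were higher at E17.5 than at E12.5, and Hes1, Dll1, Notch3 and Hes5 were lower. These 8 of 10 members compare with 60.0% of all genes tested. In Eomes-detected cells 8 of 10 members changed, only Notch1 of them upward (all genes, 50.6%). Among cells detected for Eomes alone of the 3 class genes, 5 of 9 members tested were called, 1 higher and 4 lower (all genes, 18.7%). In Neurod6-detected cells 9 of 10 changed, all of them downward (all genes, 59.6%). Of these 9, Notch2 in Neurod6-detected cells (-1.22 ± 0.53) lost its call in 14 of 32 fits with 1 library left out (-1.74 to -0.97), and DESeq2 called 8 members, where it called 60.0% of all genes. Between neighbouring stages from E12.5 on, 6, 4 and 4 members were called in Sox2-detected cells, where 38.1%, 9.0% and 23.8% of all genes were. With cells thinned to 2000 UMIs, 5 of these 30 tests were called (all genes, 13.9%). In Eomes-detected cells 6, 4 and 3 were called (all genes, 30.1%, 6.46% and 8.01%), and in Neurod6-detected cells 7, 2 and 1 (all genes, 38.0%, 11.6% and 5.86%).

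Of the receptors, Notch1, the main Notch receptor of cortical progenitors, was at 45.8, 41.4, 42.4 and 36.6 CPM in the Sox2-detected cells of WT M1, M2, F1 and F2 at E12.5, in that order, which is kept below. It was at 61.1, 59.9, 70.5 and 52.8 CPM at E14.5, at 94.8, 97.8, 96.5 and 96.7 CPM at E16.0 and at 124, 83.1, 72.2 and 80.0 CPM at E17.5. No library of a later stage fell into the range of E12.5, and the 4 libraries of E16.0 lay close together while those of E17.5 spread widely, with M1 the highest. The change from E12.5 to E17.5 was 0.90 ± 0.14 (edgeR adjusted p = 1.7e-06), with steps of 0.42 and 0.55 that passed and a last step of -0.065 that did not. In Eomes-detected cells Notch1 rose from 34.8, 36.8, 33.3 and 31.7 CPM at E12.5 to 73.1, 52.1, 45.9 and 56.1 CPM at E17.5 (0.60 ± 0.14, edgeR adjusted p = 0.00085), with no overlap between the stages. In Neurod6-detected cells it ranged over 19.0 to 24.5 CPM at E12.5 and 11.4 to 22.5 CPM at E17.5, and the change of -0.36 ± 0.25 did not pass (edgeR adjusted p = 0.23).

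Notch3, a receptor also known from the muscle cells around vessels, was at 14.2, 13.3, 14.3 and 15.2 CPM in Sox2-detected cells at E12.5 and at 7.05, 9.98, 8.99 and 8.96 CPM at E17.5. All 4 later libraries lay below all 4 earlier ones, a change of -0.90 ± 0.21 (edgeR adjusted p = 0.00049). Notch3 also fell in Eomes-detected (-1.3 ± 0.35) and Neurod6-detected cells (-1.81 ± 0.46). Notch2, the second receptor of radial glia, ranged widely within a stage. Its Sox2-detected levels were 42.5, 22.2, 37.5 and 40.9 CPM at E12.5, 27.2, 31.7, 101 and 32.5 CPM at E14.5, 47.5, 46.4, 55.9 and 50.4 CPM at E16.0 and 26.3, 54.0, 24.7 and 77.4 CPM at E17.5. F1 of E14.5 stood far above its group, and at E17.5 M1 and F1 lay below M2 and F2. The het libraries of E17.5 showed the same order, at 27.9, 80.5, 21.9 and 78.6 CPM, and the 4 low libraries, M1 and F1 of each genotype, share a label code made of the letter p and a number, whose meaning the labels do not give. In Sox2-detected cells of E17.5 these 4 libraries also had Malat1 at 16242 to 22635 CPM against 10007 to 13744 CPM in the other 4, Jun at 466 to 728 CPM against 236 to 289.5 CPM, and Hspa1a, a stress gene, at 21.9 to 46.8 CPM against 0 to 9.51 CPM. Without the 4 libraries the change of Notch2 in Sox2-detected cells over the course was 0.68 (edgeR adjusted p = 0.23). With all libraries it was 0.16 ± 0.45, did not pass (edgeR adjusted p = 0.78) and was -0.20 without F2 of E17.5.

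Of the ligands, Dll1 fell in every class. In Eomes-detected cells it was at 196, 145, 181 and 184 CPM at E12.5, 84.1, 99.5, 61.2 and 56.5 CPM at E14.5, 42.8, 49.2, 34.5 and 53.9 CPM at E16.0 and 18.1, 20.3, 21 and 24.2 CPM at E17.5. The 4 stages did not overlap with one another, and each step down passed, for a change over the course of -3.20 ± 0.21, a 9.21-fold fall (edgeR adjusted p = 1e-13). In Neurod6-detected cells Dll1 fell from 106, 74.9, 102 and 112 CPM to 9.60, 11.5, 10.2 and 12.7 CPM (-3.26 ± 0.22). In Sox2-detected cells the fall was smaller, from 58.6, 49.1, 54.4 and 49.5 CPM at E12.5 to 26.9, 26.9, 24.1 and 28.3 CPM at E16.0 and 24.2, 25.2, 28.3 and 27.3 CPM at E17.5 (-1.22 ± 0.20). The libraries of E16.0 and E17.5 overlapped, and the last step was 0.023 ± 0.20.

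Dll3 moved in opposite directions in Sox2-detected and Eomes-detected cells. It rose in Sox2-detected cells from 15.5, 16, 13.2 and 10.4 CPM at E12.5 to 30.7, 35.8, 44.4 and 33.9 CPM at E17.5 (1.19 ± 0.20, edgeR adjusted p = 1.1e-05), and of its steps only that from E16.0, at 15.9, 13.5, 21.1 and 15.4 CPM, to E17.5 passed (1.18). It fell in Eomes-detected cells from 89.2, 101, 84.8 and 89.3 CPM to 33.3, 45.5, 51.9 and 39.2 CPM (-1.23 ± 0.15, edgeR adjusted p = 6.8e-08) and changed by -1.97 ± 0.19 in Neurod6-detected cells. Neither pair of stages overlapped in these 2 classes, and the Eomes-minus-Sox2 change tested above covers this contrast in both genotypes.

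Jag1, a ligand of the Serrate family, had a low at E14.5 in Sox2-detected cells. It was at 7.08, 4.81, 9.93 and 11.2 CPM at E12.5, 3.24, 3.15, 5.67 and 3.91 CPM at E14.5, 8.70, 10.00, 10.4 and 11 CPM at E16.0 and 21.6, 20.3, 12.8 and 18.3 CPM at E17.5. The E17.5 libraries lay above all others, and all 3 steps passed, at -1.20, 1.23 and 0.92. In Neurod6-detected cells Jag1 fell from 5.19 to 11.2 CPM to 2.00 to 5.24 CPM (-1.36 ± 0.37), the 2 ranges overlapping at M2 of E12.5 and F2 of E17.5. In Eomes-detected cells the change of 0.19 ± 0.29 did not pass (edgeR adjusted p = 0.60).

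Of the targets, Hes1 fell in every class. In Sox2-detected cells it was at 544, 531, 537 and 496 CPM at E12.5, 319, 435, 286 and 259 CPM at E14.5, 405, 385, 230.0 and 432 CPM at E16.0 and 138, 127, 147 and 92.6 CPM at E17.5. The E12.5 libraries lay above and the E17.5 libraries below all others, and those of E14.5 and E16.0 overlapped. The change was -2.27 ± 0.27, a 4.84-fold fall (edgeR adjusted p = 2.7e-08), and there were changes in Eomes-detected (-2.98 ± 0.31) and Neurod6-detected cells (-3.55 ± 0.35).

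Hes5, the target most closely tied to Notch receptor activity in the cortex, went in Sox2-detected cells from 263, 221, 268 and 244 CPM at E12.5 to 195, 164, 229.6 and 189 CPM at E17.5. Those stages overlapped, F1 of E17.5 lying above M2 of E12.5, and the change was -0.56 ± 0.14 (edgeR adjusted p = 0.00077); in cells detected for Sox2 but neither Eomes nor Neurod6 it was 0.092, of the other sign. In Eomes-detected cells Hes5 fell from 124, 128, 146 and 135 CPM to 35.5, 25.2, 56.9 and 46.3 CPM (-1.84 ± 0.20), with no overlap. In Neurod6-detected cells the change was -2.05 ± 0.26.

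Hes6, which opposes Hes1 and marks cells entering neurogenesis, was at 711, 638, 607 and 666 CPM in Eomes-detected cells at E12.5 and at 341, 445, 443 and 479.6 CPM at E17.5, a change of -0.74 ± 0.17 (edgeR adjusted p = 0.00051) without overlap. In Sox2-detected cells it rose from 254, 233, 225 and 221 CPM to 292, 323, 377 and 391 CPM, also without overlap (0.36 ± 0.13, edgeR adjusted p = 0.021). Mfng, the fringe enzyme, was at 294, 259.9, 270.2 and 280.5 CPM in Eomes-detected cells at E12.5, at 351, 345, 248 and 326 CPM at E14.5 and at 168, 231, 228 and 231 CPM at E17.5. Its E17.5 libraries lay below all those of E12.5 (-0.49 ± 0.15, edgeR adjusted p = 0.0083). In Sox2-detected cells the change of Mfng, 0.26 ± 0.18, did not pass (edgeR adjusted p = 0.20).

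Markers of other cells moved with stage in Sox2-detected cells. The summed level of the 5 oligodendrocyte precursor markers ranged over 1.27 to 1.66 CPM in WT libraries at E12.5 and over 205 to 463 CPM at E17.5, and that of the 7 interneuron and ventral markers over 18.3 to 49.3 CPM and over 251 to 659 CPM, with no marker of either list at 0 in a whole group. Without the cells that carried 3 or more markers of another type, the WT changes in Sox2-detected cells were 0.97 for Dll3, 1.19 for Jag1, 1.05 for Notch1, -1.40 for Dll1, -2.10 for Hes1 and -0.40 for Hes5. Each of these had the sign it had with those cells. The values of Hes6 and Notch3 without those cells, and the calls, are not given here. Hes6 was at 383 CPM in oligodendrocyte precursor-like cells of E17.5.

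In the het embryos, tested in the same fit, 6 of 10 members were called between E12.5 and E17.5 in Sox2-detected cells (all genes, 67.0%), 8 of 10 in Eomes-detected cells (all genes, 57.1%) and 8 of 10 in Neurod6-detected cells (all genes, 66.2%). Dll1 changed by -3.59 ± 0.22 in Eomes-detected cells and Hes1 by -2.81 ± 0.28 in Sox2-detected cells. Notch1 changed by 1.26 ± 0.14 and Dll3 by 1.03 ± 0.21 in Sox2-detected cells. Hes6 there changed by -0.0067 ± 0.13 (edgeR adjusted p = 0.97) and Notch3 by -0.26 ± 0.21 (edgeR adjusted p = 0.27), which were called in WT and not in het embryos. The test of genotype by stage, given below, called no member.

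The third comparison asked whether Sox2-detected cells with the ligand's RNA differed from those without. Sox2-detected cells with a Dll1 UMI had more Dll3, Hes6 and Mfng RNA and less Hes1, Hes5, Notch2 and Notch3 RNA than the Sox2-detected cells without one in the same library. Dll1 chose the cells and was not tested. All 9 other members were called on average over the stages, 5 higher and 4 lower, where 54.1% of all genes tested were called. With cells thinned to 2000 UMIs, 6 of the 9 passed the filter on low counts. Of those 5 were called, 2 higher and 3 lower, where 16.7% of all genes were, and Notch1 (0.18) was not. The members that did not pass the filter had no test with thinned cells. Cells with both a Sox2 and a Dll1 UMI made up 16.3 to 19.3% of all cells in the WT libraries at E12.5 and 1.67 to 2.94% at E17.5, where their median depth, 7034 to 9365 UMIs, was above the 5424 to 6342 UMIs of the others.

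Intermediate progenitor markers, 6 in all, summed to 2982 CPM in Dll1-detected and 491 CPM in the other cells at E12.5 (means of 8 libraries). Without the Eomes-detected cells the averaged differences were 2.60 for Dll3, 1.76 for Mfng, 1.57 for Hes6, 0.43 for Jag1, -0.77 for Notch2, -0.57 for Notch3, -0.52 for Hes1 and -0.26 for Hes5, all called (all genes, 28.8%), and Notch1, at 0.091, lost its call (edgeR adjusted p = 0.063).

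At E12.5, Dll3 was at 36.7 ± 6.55 CPM (SD, n = 8 libraries of both genotypes) in Dll1-detected cells and at 7.06 ± 1.49 CPM in the others, a difference of 2.37 ± 0.064 (edgeR adjusted p = 4.9e-34). At E17.5 it was at 81.6 ± 11.8 CPM and 26.0 ± 3.99 CPM. The Dll1-detected cells were the higher in 32 of 32 libraries for Dll3, for Hes6 and for Mfng. Hes6 stood at 662 ± 212 CPM against 136 ± 22.9 CPM at E12.5 and at 557 ± 102 CPM against 286 ± 46.3 CPM at E17.5. Mfng stood at 194 ± 18.4 CPM against 42.0 ± 2.14 CPM at E12.5 and at 131 ± 26.4 CPM against 101 ± 17.8 CPM at E17.5. The gap for Mfng thus narrowed from 2.19 to 0.49 (change -1.70 ± 0.094, edgeR adjusted p = 2.5e-20) while the level in the other cells went from 42.0 to 101 CPM.

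Hes1 was lower in Dll1-detected cells in 30 of 32 libraries and averaged -0.86 ± 0.038, with 454 ± 124 CPM against 697 ± 220 CPM at E12.5. The gap for Hes1 was widest at E16.0 (-1.41 ± 0.073). Hes5 averaged -0.40 ± 0.043, lower in 27 of 32 libraries, and did not pass at E12.5 (-0.11 ± 0.059, edgeR adjusted p = 0.11). Receptors differed in direction: Notch2 (-0.85 ± 0.069) and Notch3 (-0.73 ± 0.076) were lower in Dll1-detected cells, and Notch1 was slightly higher (0.18 ± 0.024, 24 of 32 libraries). With Dll3 in place of Dll1 to choose the cells, the Notch1 difference was -0.41 and that of Jag1 -0.40, both of the other sign.

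By stage, from E12.5 on, 8, 7, 8 and 9 of the 9 members were called, where 44.7%, 46.2%, 37.5% and 34.8% of all genes were, and the change from E12.5 to E17.5 was called for 6 (all genes, 39.8%).

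Jag1 changed sides. At E12.5 it was at 6.43 ± 2.53 CPM in Dll1-detected cells and 8.62 ± 2.71 CPM in the others, and lower in 8 of 8 libraries (-0.35 ± 0.085, edgeR adjusted p = 0.00065). At E17.5 it was at 30 ± 8.66 CPM against 16.3 ± 4.29 CPM, and higher in 8 of 8 (1.01 ± 0.13, edgeR adjusted p = 7.7e-09). The change between the stages was 1.36 ± 0.15 (edgeR adjusted p = 2.7e-10). Olig1, which marks oligodendrocyte precursors, was at 674 ± 200 CPM in Dll1-detected and 110 ± 26.5 CPM in the other Sox2-detected cells at E17.5, and at 0.222 ± 0.227 CPM and 0.0542 ± 0.0503 CPM at E12.5. Without the cells carrying 3 or more markers of another type, the Jag1 difference at E17.5 was 1.02 ± 0.15 and that of Dll3 was 1.14 ± 0.14, against 1.76 ± 0.11 with them.

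**Figure D3:**
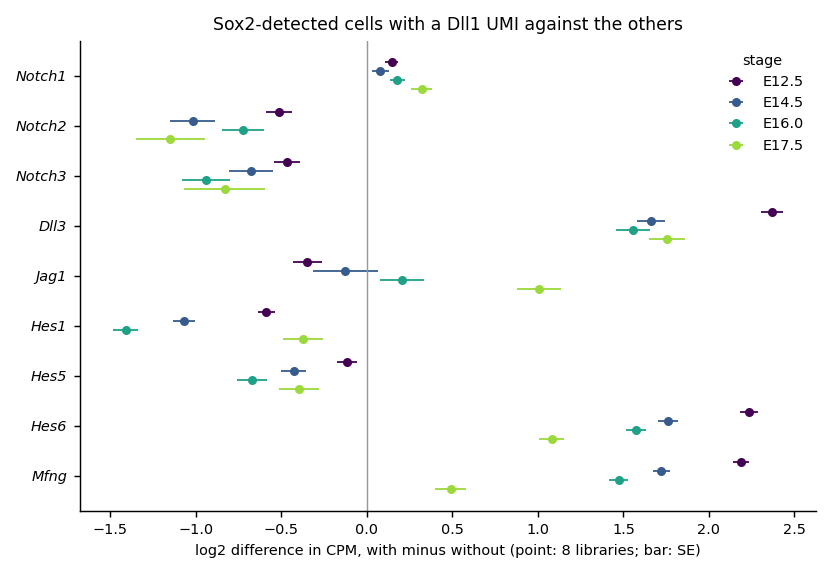
Log2 difference, from the edgeR fit, between Sox2-detected cells with and without a Dll1 UMI, by member and stage (points, 8 libraries each; bars, SE). Dll3, Hes6 and Mfng lie above 0 and Notch2 and Notch3 below 0 at all 4 stages, and Jag1 runs from -0.35 at E12.5 to 1.01 at E17.5.

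The fourth comparison set Chd8+/- against WT embryos. No member was called when the genotype difference was averaged over the stages, in any class, by edgeR's quasi-likelihood test, where 0.499% of all genes were called in Sox2-detected, 0.304% in Eomes-detected and 0.205% in Neurod6-detected cells. At an unadjusted p under 0.05, 0 of 10 members passed in Sox2-detected, 1 in Eomes-detected (Notch1) and 0 in Neurod6-detected cells. Of all genes tested, 1176 of 13823, 1185 of 13149 and 855 of 14623 did in those classes. DESeq2 called 0 members in each class. The averaged differences ran from -0.063 to 0.13 in Sox2-detected cells, from -0.21 to 0.12 in Eomes-detected cells and from -0.13 to 0.11 in Neurod6-detected cells. For Notch1 in Eomes-detected cells the difference was -0.21 ± 0.073 (edgeR adjusted p = 0.31), and the het embryo was the higher in 5 of 16 pairs. With the matched pair as a block it was -0.21 ± 0.057 (edgeR adjusted p = 0.067), and that fit called no averaged difference of a member. Standard errors of the averaged differences ran from 0.067 for Hes6 in Sox2-detected cells to 0.26 for Notch2 in Neurod6-detected cells.

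At single stages no member was called either. At E12.5, 1.04% of all genes were called in Sox2-detected, 0.502% in Eomes-detected and 0.00684% in Neurod6-detected cells, and later stages had 0.0217% (Sox2-detected cells, E16.0), 0.0228% and 0.00761% (Eomes-detected cells, E16.0 and E17.5) or none. Of 40 tests per class, 3 had an unadjusted p under 0.05 in Sox2-detected, 2 in Eomes-detected and 1 in Neurod6-detected cells, all 6 at E12.5. Of all genes at E12.5, 18.2%, 14.7% and 12.6% had an unadjusted p under 0.05 in those classes, against 1.07% (Neurod6-detected cells, E14.5) to 5.52% (Eomes-detected cells, E17.5) at the later stages. DESeq2 called 1 of 10 members at E12.5 in Sox2-detected cells, 2 of the 7 given an adjusted p in Eomes-detected cells and 0 of the 6 given one in Neurod6-detected cells, where it called 9.05%, 10.6% and 7.87% of the genes with an adjusted p. The test of whether the genotype difference varied with stage called 0 of 10 members in each class by edgeR. At an unadjusted p under 0.05, 1, 1 and 0 members passed it, where 821 of 13823, 625 of 13149 and 496 of 14623 genes did. DESeq2 called 0 by that test and gave no adjusted p to 5 members in Sox2-detected and 8 in Eomes-detected cells. No gene of all those tested was called by that test in edgeR.

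The 6 values at E12.5 were Hes5, Hes1 and Notch1 in Sox2-detected cells, Notch1 and Hes6 in Eomes-detected cells and Hes6 in Neurod6-detected cells. Hes5 was at 263, 221, 268 and 244 CPM in the Sox2-detected cells of the WT embryos M1, M2, F1 and F2 and at 353, 244, 350.2 and 334 CPM in those of their het partners. It was higher in the het embryo in 4 of 4 pairs, by least in M2, and the groups overlapped through het M2 (0.45 ± 0.14, edgeR adjusted p = 0.078). Hes1 was at 544, 531, 537 and 496 CPM in WT and 949.8, 414, 975.5 and 719 CPM in het embryos, higher in 3 of 4 pairs and lower in M2 (0.63 ± 0.26, edgeR adjusted p = 0.18). Notch1, the receptor, was at 45.8, 41.4, 42.4 and 36.6 CPM in WT and 31.6, 42.0, 21.6 and 34.1 CPM in het embryos, lower in 3 of 4 pairs, with het M2 within the WT range and the other 3 below it (-0.28 ± 0.13, edgeR adjusted p = 0.27).

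Notch3 in Sox2-detected cells was at 14.2, 13.3, 14.3 and 15.2 CPM in WT and 10.1, 12.8, 7.64 and 11.5 CPM in het embryos of E12.5. All 4 het libraries lay below all 4 WT libraries (-0.35 ± 0.18, edgeR adjusted p = 0.31).

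In Eomes-detected cells, Notch1 was at 34.8, 36.8, 33.3 and 31.7 CPM in WT and 21.4, 30.1, 13.7 and 22.5 CPM in het embryos of E12.5. All 4 het libraries were again the lower (-0.49 ± 0.15, edgeR adjusted p = 0.10). At later stages the het libraries also all lay below the WT libraries for Notch3 in Sox2-detected cells at E16.0 (-0.23 ± 0.19, edgeR adjusted p = 1.00) and Dll1 in Eomes-detected cells at E17.5 (-0.34 ± 0.23, edgeR adjusted p = 0.90). Such separations were looked for in every member, class and stage. They were not counted over all genes, so they are descriptions only. Hes6 in Eomes-detected cells of E12.5 was at 711, 638, 607 and 666 CPM in WT and 996, 544, 1120.5 and 923 CPM in het embryos. Het M2 lay below all WT libraries and the other 3 above them (0.56 ± 0.17, edgeR adjusted p = 0.089). Hes6 in Neurod6-detected cells had the same pattern, at 385, 351, 353 and 375 CPM and 531, 328, 519 and 486 CPM (0.46 ± 0.18, edgeR adjusted p = 0.28).

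With the matched pair as a block, 6 member tests at E12.5 were called by edgeR. They were Hes5 (0.43, adjusted p = 0.017), Hes1 (0.54, adjusted p = 0.033) and Notch3 (-0.36, adjusted p = 0.033) in Sox2-detected cells, Notch1 (-0.51, adjusted p = 0.019) and Hes6 (0.50, adjusted p = 0.029) in Eomes-detected cells, and Hes6 (0.42, adjusted p = 0.034) in Neurod6-detected cells. The same fit called 15.8%, 6.91% and 4.46% of all genes in the 3 classes, so that the members were called amid many other genes. Leaving out het M2 of E12.5 from the unblocked fit gave 2 calls in each class, where 13.7%, 9.69% and 8.87% of all genes were called, with Hes1 in Sox2-detected cells at 0.86.

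Other measures moved with the same libraries. M1, F1 and F2 of E12.5 carry label codes that start with c10, in both genotypes, and M2 carries codes that start with c15, of unstated meaning. The 3 het libraries with c10 codes were also the shallower ones, and Vim, a radial glia gene, was at 733, 563 and 714 CPM in their Sox2-detected cells against 1164 CPM in het M2 and 1009 to 1171 CPM in the WT libraries. In the same 3 libraries Jun, an early response gene, was at 884, 763 and 630.5 CPM against 418 CPM in het M2 and 389.5 to 581 CPM in the WT libraries, and Malat1, a nuclear RNA, at 7451, 7562 and 7544 CPM against 4765 CPM and 5671 to 6735 CPM. Both were highest in these 3 libraries. The summed level of the 7 radial glia markers in Eomes-detected cells of E12.5 ranged over 1672 to 1845 CPM in WT and 872 to 1925 CPM in het libraries, and cells with both a Sox2 and a Dll1 UMI made up 4.77 to 18.9% of all cells in the het libraries. The part of depth and of these markers in the genotype differences was not tested beyond thinning. With every cell thinned to 2000 UMIs the unblocked fit gave 0.44 for Hes5, 0.52 for Hes1 and -0.11 for Notch3 in Sox2-detected cells. None of these was called, and none was in the unblocked fit without thinning. Thinned values of Notch1 and Hes6 in Eomes-detected and of Hes6 in Neurod6-detected cells are not given here. The c15 pair alone, at 1 library per genotype, gives no test.

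**Figure D4:**
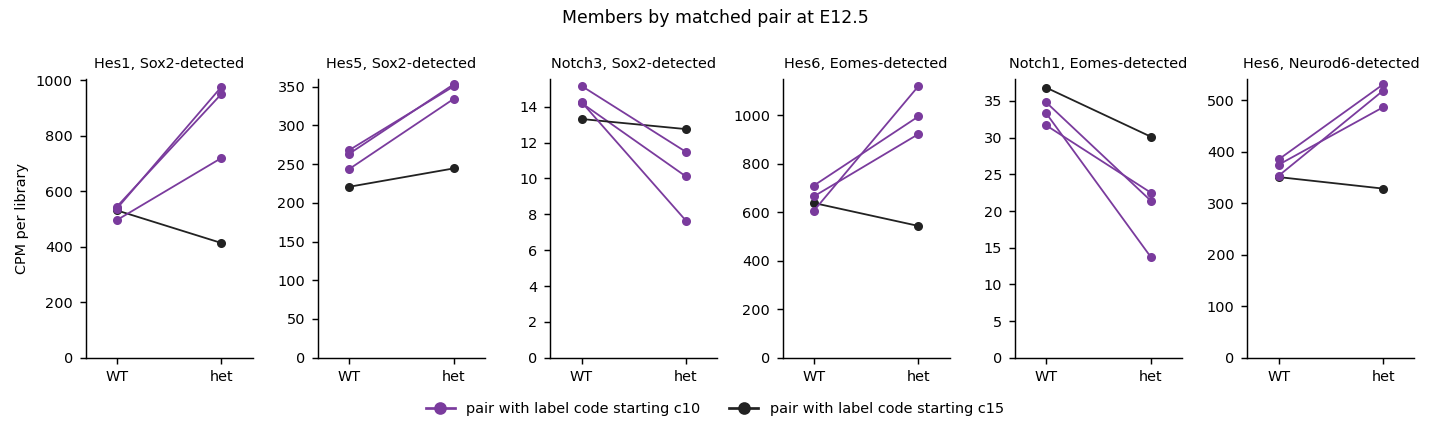
CPM at E12.5 in each WT library and its het partner (lines join matched pairs) for the member tests that edgeR called with the matched pair as a block, by class. Purple pairs carry label codes starting c10 and the black pair, M2, codes starting c15. Purple lines rise for Hes1, Hes5 and Hes6 and fall for Notch1 and Notch3. The black line rises for Hes5 and falls for Hes1, Hes6, Notch1 and Notch3.

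**Figure D5:**
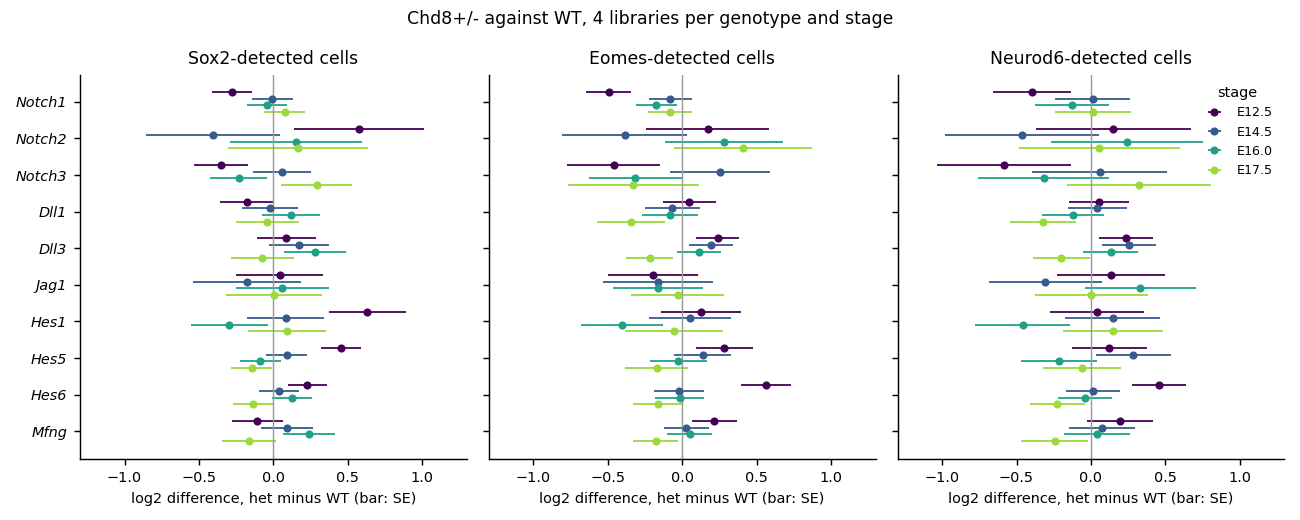
Log2 difference between het and WT embryos for each member, stage and class (points, 4 libraries per genotype; bars, SE). The points of E12.5 range from -0.58 for Notch3 in Neurod6-detected cells to 0.63 for Hes1 in Sox2-detected cells, and those of the later stages lie between -0.46 and 0.41.

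Some members had like patterns over the 12 WT means of stage and class. Hes6 and Mfng correlated at r = 0.96 on log2(CPM + 1) (het means, 0.93), Dll3 and Mfng at 0.82 and Dll1 and Dll3 at 0.67. Hes1 and Hes5 correlated at 0.93, Notch3 and Hes1 at 0.94 and Notch2 and Notch3 at 0.93. Dll1 and Hes5 correlated at 0.47, and Dll3 and Hes5 at -0.13. The 12 points share libraries, and the classes share cells, so these are descriptions.

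By the same measure over 8478 genes with a mean of at least 10 CPM, the genes most like Dll1 were Spsb4 (r = 0.97), Gadd45gip1 (0.97), Homer2 (0.96), Sapcd1 (0.95) and Pard3 (0.95), with 0.98, 0.95, 0.94, 0.93 and 0.76 over the 12 het means. Those most like Hes5 were Zfp36l1 (0.98), Col2a1 (0.98), Cldn12 (0.97), Tmem97 (0.97) and Nes (0.97), the last a radial glia gene, with 0.96, 0.93, 0.94, 0.97 and 0.88 over the het means.

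Of 58 other genes of the pathway, 54 were tested between classes. From Sox2-detected to Eomes-detected cells 26 were higher and 21 lower (all genes called in either direction, 80.4%), and from Eomes-detected to Neurod6-detected cells 24 were higher and 27 lower (all genes, 82.9%). Lfng, the fringe enzyme of radial glia, differed in Eomes-detected cells by -2.08 ± 0.055 on the log2 scale, where Mfng was higher. Numbl, related to the Notch inhibitor Numb, was higher by 1.07 ± 0.031. The targets Hey1 (-0.70) and Nrarp (-0.66) and the corepressor Tle1 (-0.72) were lower. Between Eomes-detected and Neurod6-detected cells, Rbpj itself differed by -0.32 ± 0.021.

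Over WT development, 20 of these genes were higher and 13 lower at E17.5 of 56 tested in Sox2-detected cells (all genes, 60.0%), 16 higher and 11 lower of 53 in Eomes-detected cells (all genes, 50.6%), and 22 higher and 14 lower of 56 in Neurod6-detected cells (all genes, 59.6%). Hey1, a target repressor, changed by -2.19 ± 0.12 in Sox2-detected, -2.96 ± 0.12 in Eomes-detected and -3.26 ± 0.12 in Neurod6-detected cells. Dtx1, a Deltex ubiquitin ligase, rose in each class, by 2.89, 1.81 and 1.97. Nrarp rose in Eomes-detected cells by 0.79, in contrast to the fall of Hes1 and Hes5 there. In Sox2-detected cells with a Dll1 UMI, 19 of 48 genes tested were higher and 12 lower (all genes, 54.1%), among them Numbl at 0.74, Lfng at -0.79 and Hey1 at -0.69. Between the genotypes, averaged over the stages, edgeR called 0 of the 56, 53 and 56 genes tested in the 3 classes (all genes, 0.499%, 0.304% and 0.205%). At an unadjusted p under 0.05, 2, 3 and 1 passed, where 1176 of 13823, 1185 of 13149 and 855 of 14623 of all genes tested did. DESeq2 called 0, 0 and 0.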

How the data were processed

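Single-cell RNA was measured in 32 libraries, 1 per embryo, 4 per genotype and stage, from polyA RNA captured with 10x 3′ v2 chemistry, per the labels' protocols. The values are whole counts of UMIs per gene and cell, and per the labels and files the authors deposited them as 1 matrix per library without normalization. STAR 2.7.9a, STARsolo, Cell Ranger and mm10 are named in the submitters' processing notes, with no role given.

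Cells were kept with at least 1000 UMIs, 500 genes and at most 10% mitochondrial counts, which left 143697 of 145082 barcodes. Simulated doublets (20 neighbours, 30 components, 2000 variable genes) were used to remove 5471 cells, 1.96% to 5.91% of a library. Counts were summed per library over Sox2-, Eomes- and Neurod6-detected cells (at least 1 UMI) and tested with edgeR 4.0.16 in R 4.3.3 (filterByExpr, TMM, quasi-likelihood test), fitted on all genes that passed the filter and on all libraries, with Benjamini-Hochberg adjustment over all genes. CPM scale each class sum to a common total, not by length, so genes are not ranked by level. The log2 differences come from the fits, which use TMM, so they need not equal the ratio of the printed CPM. Differences between classes, and between cells with and without a Dll1 UMI, were fitted with the library as a block. The scripts were tested on simulated data. Python 3.11.15, scikit-learn 1.9.0, DESeq2 1.42.0 and matplotlib 3.10.9 were also used. P-values of the stage and genotype fits measure the spread between embryos. Those of the class and Dll1 fits measure the spread of differences within libraries, and the class sums they compare share cells.

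Each WT embryo is paired by the labels with a het embryo of its litter and sex, and the partner was taken as the one with the same replicate number. Deviations from the group means correlated within the 16 pairs at 0.0780 to 0.796 in Sox2-detected, -0.00429 to 0.829 in Eomes-detected and 0.156 to 0.884 in Neurod6-detected cells. They correlated best with the own partner in 10, 12 and 11 of the 16 pairs in those classes. The F1 and F2 pairs of E12.5 were not among these in any class. The pair was a block in an alternative fit. Other alternatives were DESeq2, no filter, no doublet removal, 2 UMIs for a class, cells of a single class, cells thinned to 2000 UMIs, cells without markers of other types, Dll3 in place of Dll1, no Eomes-detected cells in the Dll1 comparison, and each library left out. Leaving out 4 libraries of E17.5, or the 8 of E12.5, was chosen after seeing the data.

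The members and gene lists were chosen with earlier results of these data known. Named were all 10 members and, per comparison, at most the 4 listed pathway genes called in each direction with the largest change and a mean log2 CPM of at least 3, of which some are printed, and the 5 genes most like Dll1 and Hes5. Promoter sequences are RefSeq's, matched by symbol.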

Additional observations from a re-analysis of the deposited data

Results flagged for a closer look

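Of 240 groups of 4 libraries, 1 per member, class, genotype and stage, 14 held a library that stood apart by Dixon's criterion, and chance gives about 1 in 20, or 12. Of these, 10 were F1 libraries of E14.5. In the WT F1 library, Notch2 was at 101 CPM in Sox2-detected and 28.4 CPM in Neurod6-detected cells, Notch1 at 21.7 CPM and Jag1 at 5.29 CPM in Neurod6-detected cells. In the het F1 library, Notch3 was at 16.1 CPM and Jag1 at 7.13 CPM in Sox2-detected cells, Mfng at 234 CPM in Eomes-detected cells, and Notch2 at 18.6 CPM, Notch3 at 4.68 CPM and Jag1 at 3.31 CPM in Neurod6-detected cells. These 2 libraries are the embryos of 1 matched pair and carry label codes with the same start, of unstated meaning. The other groups were Hes1 in Sox2-detected cells of het E14.5 M2 (536 CPM), Hes5 in Sox2-detected cells of het E17.5 F1 (137 CPM), Dll1 in Neurod6-detected cells of het E16.0 F1 (11.9 CPM) and Mfng in Eomes-detected cells of WT E17.5 M1 (168 CPM).

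The Eomes-minus-Sox2 difference was smaller or more negative at E17.5 than at E12.5 by edgeR's test of the change for each member, by -2.52 on the log2 scale for Dll3, -2.20 for Dll1, -1.29 for Hes6, -1.26 for Hes5, -0.91 for Mfng, -0.77 for Jag1, -0.70 for Notch3, -0.66 for Notch2, -0.59 for Hes1 and -0.31 for Notch1.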

How the results depend on the processing

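Of the counts of members called, 185 values under other settings and 729 with 1 library left out stayed within 1.5 times, and 12 and 7 did not. For the genotype difference at single stages, where edgeR called 0, DESeq2 called 1 member test in Sox2-detected and 2 in Eomes-detected cells, the replicate block called 3, 2 and 1 in Sox2-, Eomes- and Neurod6-detected cells and changed no other genotype call of a member, and 1 was called in Sox2-detected cells without the 4 libraries of E17.5 coded p. Leaving out 1 library gave 0 to 2 in each class, with 2 in each class without het M2 of E12.5 and 1 in Sox2-detected cells without het F1 of E17.5. The change of the genotype difference between stages ranged over 0 to 1 in Eomes-detected cells, with 1 without het M2 of E12.5. Among WT adjacent stages in Sox2-detected cells, 14 of 30 tests were called, 5 with thinned cells and 9 to 17 with 1 library left out, 9 without M1 or M2 of WT E14.5. Of all genes, 23.7% of those tests were called, and 13.9% with thinned cells. In Eomes-detected cells of a single class, 5 of 9 members tested were called over the WT course and 3 of 27 adjacent steps, against 8 of 10 and 13 of 30, and of all genes 18.7% and 2.20% were, against 50.6% and 14.9%. The Eomes-minus-Sox2 change was called for 5 members with cells of a single class and 6 with thinned cells, and the Dll1 comparison for 5 of the 6 members that passed the filter with thinned cells, so that fewer were tested. The cause of these differences was not tested.

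Among the WT course, class and Dll1 comparisons of the members, signs turned as follows. With cells of a single class, the WT course was 0.025 for Notch1 in Neurod6-detected, 0.26 for Notch2 in Eomes-detected, 0.092 for Hes5 and -0.29 for Mfng in Sox2-detected cells, the change of Notch3 was 0.038, the Neurod6-minus-Sox2 difference was 0.060 for Dll1 and 0.30 for Hes6, and the Eomes-minus-Sox2 difference was 0.057 for Jag1. With 2 UMIs for a class the course of Notch1 in Neurod6-detected cells was 0.018 and the Neurod6-minus-Sox2 difference of Hes6 0.12. The latter was 0.00018 without cells of other types, 0.0024 with thinned cells and 0.024 without the p-coded libraries. Thinned cells gave 0.29 for the course of Notch2 in Eomes-detected cells. With Dll3 in place of Dll1, Notch1 was at -0.41 and Jag1 at -0.40. Without 1 library, the course of Notch2 in Sox2-detected cells ranged over -0.20 to 0.39 (lowest without WT F2 of E17.5) and that of Jag1 in Eomes-detected cells over -0.034 to 0.43 (lowest without WT M2 of E12.5). Of the members' values in those comparisons and of 6 genotype values at E12.5 (Hes1, Hes5 and Notch3 in Sox2-, Notch1 and Hes6 in Eomes- and Hes6 in Neurod6-detected cells), with 1 library left out 2690 kept their direction and call, 22 lost the call, 6 gained one and 2 turned. Of those under other settings 623, 39, 10 and 16 did. These counts do not cover the other genotype differences or the het course. For the averaged genotype difference 18 of 320, 4 of 320 and 34 of 320 values turned with 1 library left out in Sox2-, Eomes- and Neurod6-detected cells, and 16 of 100, 7 of 97 and 16 of 100 under other settings. At a single stage up to 24 of 320 and 22 of 90 turned (Neurod6-detected cells, E17.5), and for the het course up to 23 of 320 and 10 of 80 (Sox2-detected cells). Depth limits single values, since a member rested on as few as 2 UMIs in a class of a library.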

Other observations

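Cells of other types, named by their own markers, also carried members of the pathway. The values below are CPM of counts summed over all libraries of a stage with exact 95% Poisson intervals, which cover counting error only, and no test was run. Notch3 in mural-like cells, the cells that wrap vessels, was at 52.2 CPM (44.0 to 61.5) at E12.5 and 172 CPM (154 to 191) at E17.5. Endothelial-like cells, the lining of vessels, had Notch1 at 105 and 149 CPM and Jag1 at 91.5 and 47.5 CPM at these stages.

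In the oligodendrocyte precursor-like cells of E17.5, Dll1 was at 103 CPM (90.5 to 118), Dll3 at 145 CPM and Hes5 at 230.4 CPM. Interneuron- and ventral-like cells had Dll1 at 103 CPM at E12.5 and 24.3 CPM at E17.5, and Hes5 at 227 and 20.7 CPM.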
